A study of Mus musculus with 12 samples.

Results

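The transcripts of *Ankrd11*, *Ankrd12*, *Ankrd17*, *Ankhd1* and *Bod1l* were followed through a YTHDF2 RNA immunoprecipitation sequencing (RIP-seq) experiment on tumor-infiltrating CD11b+ myeloid cells. These 5 genes were taken by symbol from the 54446 genes of the count tables. They had been selected on measured values of the same libraries, their strong enrichment in the YTHDF2 IP and, for *Ankrd11* and *Ankrd12*, their loss of IP share after IR, and as genes with large exons, so exon length, enrichment and loss of IP signal are given as descriptions without a test. Cells came from MC38 tumors, grown from a mouse colon carcinoma line, in WT mice (*Ythdf2* f/f animals without a Cre, so that *Ythdf2* was intact). The Ctrl tumors were not irradiated, and the IR tumors had received 1 local dose of 20 Gy, with cells taken 3 days later. Each condition had 3 pools of cells from several mice, which the study calls technical replicates, and every pool gave an Input library, made from part of the lysate, and an IP library, made from RNA recovered with an anti-YTHDF2 antibody. Mice in the experiments were male and female and 8 to 10 weeks old. All p-values measure only the spread between these pools.

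YTHDF2 is a cytoplasmic reader of N6-methyladenosine (m6A), a methyl mark on RNA, and it brings marked transcripts to deadenylation and decay. The mark is laid down by a nuclear methyltransferase complex at DRACH motifs, whose core is often GGAC, and it is known to be dense in long internal exons and around stop codons. Ankrd11 and Ankrd12 are nuclear paralogs with ankyrin repeats that bind p160 nuclear receptor coactivators and recruit histone deacetylases, and loss of 1 human copy of *ANKRD11* causes KBG syndrome. Ankrd17 and Ankhd1 are a second pair of paralogs, very large proteins with ankyrin repeats and a KH domain, linked to the Hippo coactivator YAP and, for Ankrd17, to innate immune signaling and the cell cycle. Bod1l has no ankyrin repeats, protects stalled replication forks and works with the Set1 histone methyltransferase complex.

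On the mm10 genome, *Ankrd11* (ENSMUSG00000035569.17) lies on the minus strand at chr8:122883822-123042277 and *Ankrd12* (ENSMUSG00000034647.15) on the minus strand at chr17:65965698-66077089. *Ankrd17* (ENSMUSG00000055204.15) is on the minus strand at chr5:90227166-90366577, *Ankhd1* (ENSMUSG00000024483) on the plus strand at chr18:36559987-36658913, and *Bod1l* (ENSMUSG00000061755.10) on the minus strand at chr5:41787538-41844315.

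By the coding bases of the longest coding exon, all 5 stood between the 94.9th and 99.9th percentile of 10573 protein-coding genes, whose median was 267. They differed in how much of the coding sequence that exon holds. In the principal transcript of *Ankrd11*, exon 9 alone has 6518 coding bases, 82.2% of the coding sequence. Exon 9 of *Ankrd12* has 4658 coding bases (76.1%), and exon 10 of *Bod1l* has 5953 (65.4%). The longest coding exon of *Ankrd17* (exon 29, 1631 coding bases, 20.9% of the coding sequence) and of *Ankhd1* (exon 29, 1610 bases, 21.1%) are shorter, at the 94.9th percentile or just above it. The 5 transcripts also have a long coding sequence, from 6123 bases in *Ankrd12* to 9096 in *Bod1l*, at the 97.7th to 99.3rd percentile of those genes (median 1377).

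The exons that set these genes apart differ in their content of GGAC, the core of the m6A motif, searched on the transcript strand only. The principal transcript of *Ankrd11* holds 76 GGAC, or 8.99 per kb, at the 98.1st percentile of the 10573 genes (median 4.18 per kb), and 63 of them lie in exon 9. *Ankrd12* holds 22, or 2.03 per kb, at the 7.69th percentile, with 5 in its exon 9. *Bod1l* (3.98 per kb) and *Ankhd1* (4.62 per kb) were near the median, and *Ankrd17* was below it (3.06 per kb, 25th percentile). The paralogs also differ in base composition, with 55.0% GC in *Ankrd11* and 40.0% in *Ankrd12*, the latter at the 4.18th percentile. A strong IP signal was thus present in transcripts at both ends of the GGAC range. To show the contrast, the 120-base window with the most GGAC in the longest coding exon is printed 5′ to 3′ on the transcript strand, with GGAC in capitals, for *Ankrd11* (chr8:122893593-122893712, 5 matches), *Bod1l* (chr5:41819353-41819472, 4 matches), *Ankrd12* (chr17:65985824-65985943, 2 matches) and *Ankrd17* (chr5:90243011-90243130, 1 match). Sequences are from the GENCODE M21 transcripts on mm10, and all windows lie on the minus strand.
Ankrd11: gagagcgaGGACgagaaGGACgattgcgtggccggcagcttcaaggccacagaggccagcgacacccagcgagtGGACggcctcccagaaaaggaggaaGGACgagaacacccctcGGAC
Bod1l: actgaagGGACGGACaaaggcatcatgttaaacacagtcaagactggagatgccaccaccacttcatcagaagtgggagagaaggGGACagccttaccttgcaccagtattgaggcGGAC
Ankrd12: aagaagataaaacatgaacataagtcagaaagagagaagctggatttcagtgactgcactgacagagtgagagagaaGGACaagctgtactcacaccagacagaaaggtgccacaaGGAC
Ankrd17: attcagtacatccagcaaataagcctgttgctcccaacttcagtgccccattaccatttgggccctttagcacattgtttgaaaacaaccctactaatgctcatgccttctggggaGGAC
Of 93132 such windows laid end to end over the longest coding exons of 21275 protein-coding genes, 40.0% hold at least 1 GGAC, 10.5% at least 2, 0.338% at least 4 and 0.0569% at least 5. The printed windows are the richest of their exons, and longer exons offer more windows, so these shares are given for orientation only. A match to 4 letters is not a methylation site, and m6A itself was not analysed here.

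The gene pairs are related without being copies. Over their principal transcripts no run of 50 bases was shared between any pair of the 5, so no stretch of that length could draw reads from more than 1 of them. *Ankrd11* and *Ankrd12* aligned over 14.2% of the *Ankrd11* transcript, with a longest local match of 743 bases at 67.6% identity. *Ankrd17* and *Ankhd1* aligned over 40.0% of the *Ankrd17* transcript, with a longest match of 2331 bases at 76.0% identity. The stretch of 90 bases in which *Ankrd11* and *Ankrd12* are most alike, spliced across exons 12 and 13 of both, shows the degree of relation. It lies within chr8:122884250-122885652 and chr17:65970251-65972299 on mm10, both on the minus strand, and 69 of its 90 bases (76.7%) are identical and in capitals.
Ankrd11: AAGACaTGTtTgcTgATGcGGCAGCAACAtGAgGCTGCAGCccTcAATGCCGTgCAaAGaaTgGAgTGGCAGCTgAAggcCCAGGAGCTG
Ankrd12: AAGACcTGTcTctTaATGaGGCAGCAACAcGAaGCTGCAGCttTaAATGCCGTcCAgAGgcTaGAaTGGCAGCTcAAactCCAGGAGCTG
Some other annotated genes share exon bases with these genes. The antisense gene *Gm45894* shares 1299 bases, 7.83%, of the merged *Ankrd11* exons. The counting set aside 0.97% to 2.22% of uniquely aligned reads as ambiguous. Without a stated strand setting it is not known whether reads over the shared bases were counted on *Ankrd11* or set aside. In the annotation used here a coding gene, *AC115631.1*, shares 1624 bases (17.6%) of the *Ankhd1* exons on the same strand. It had no counts that were used here, and its part in the reads counted on *Ankhd1* was not tested.

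Reads counted on genes numbered 34445784 to 42382532 in the 6 Input libraries and 27852948 to 33882664 in the 6 IP libraries. Among uniquely aligned reads the share that the counting assigned to no gene was 42.3% ± 0.46 (SD, n = 3) for the Ctrl IPs and 51.4% ± 2.43 for those of IR, against 27.0% ± 0.026 and 24.7% ± 0.065 for the matching Inputs. Whether such reads lay in introns, antisense to genes or between genes was not examined. The 12 myeloid markers, with *Itgam* (CD11b) and *Lyz2* among them, were present in every library and summed to 9920–10785 CPM in the Ctrl Inputs, and 13269–14061 CPM in those of IR. The largest rises were in *S100a9* (3308–3666 to 4676–5058 CPM), *S100a8* (1852–2242 to 2711–3102) and *Itgam* (942–945 to 1692–1738). *Ptprc* (329–352 and 317–331), *Csf1r* (210–218 and 204–215) and *Adgre1* (29.2–33.0 and 26.8–30.0) did not rise. Each other marker was higher in every IR Input than in any Ctrl Input. In the same order, the 5 epithelial or tumor markers summed to 119–127 and 90.9–96.9 CPM, nearly all of it *Cdh1* (115–122 and 86.0–90.1 CPM), the 4 B cell markers to 18.6–20.0 and 25.1–27.8 CPM, the 3 endothelial markers to 25.3–26.8 and 21.7–23.7 CPM, the 5 fibroblast markers to 7.0–7.47 and 8.43–12.9 CPM, and the 3 NK cell markers to 10.7–11 and 11–12.4 CPM. The 6 T cell markers stayed at or below 1.93 CPM in any Input and the 3 erythroid markers at or below 0.514 CPM, with *Krt19* at 0 in all 12 libraries. *Epcam* was at 4.34–5.17 CPM in the Ctrl Inputs and 4.73–6.58 CPM in those of IR, and *Krt8* and *Krt18* were at or below 0.272 CPM in any Input, so the lower epithelial or tumor sum after IR was that of *Cdh1* alone. Single genes also made up most of the endothelial (*Pecam1*), fibroblast (*Col1a1*) and NK cell (*Klrk1*) sums. In the IPs, the myeloid sum was 3492–3638 CPM in Ctrl and 3340–3741 CPM in IR, the B cell sum 43.0–49.3 and 30.8–38.6 CPM, and the epithelial or tumor sum 71.0–78.3 and 45.0–61.8 CPM. These are pools of CD11b+ cells, so a gain of 1 myeloid cell type and a gain of RNA per cell cannot be told apart, and the part of the myeloid marker difference between the Inputs in the results below was not tested. The transcript of *Ythdf2* itself stood at 58.0 ± 0.47 CPM in the Ctrl Inputs, with 51.5 ± 3.81 in those of IR (log2 difference −0.25, standard error 0.052, edgeR adjusted p = 2.97e-04).

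In the Inputs, which measure transcript abundance, all 5 genes were slightly higher after IR. Levels below are CPM, counts scaled to a common library size with TMM factors from all 12 libraries, which depend on transcript length and are therefore compared within a gene. *Ankrd12* had 451, 438 and 434 CPM in the Ctrl Inputs, and 617, 578 and 616 CPM in those of IR. Its groups were well apart, and with a log2 difference of 0.37 (standard error 0.032, 1.30-fold, edgeR adjusted p = 2.52e-10) it had the largest estimate of the 5. *Ankhd1* had 230, 216 and 218 CPM in the Ctrl Inputs against 271, 277 and 272 CPM in the IR Inputs, a log2 difference of 0.22 (standard error 0.034, edgeR adjusted p = 5.09e-06).

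*Bod1l*, the fork protection factor, had 438, 425 and 439 CPM in the Ctrl Inputs, and 527, 524 and 515 CPM in those of IR, a log2 difference of 0.19 (standard error 0.030, edgeR adjusted p = 7.82e-06). *Ankrd11* had 1387, 1281 and 1304 CPM in the Ctrl Inputs, and 1569, 1539 and 1575 CPM in those of IR. The first Ctrl pool was the highest of its group yet below every IR pool, and the log2 difference was 0.16 (standard error 0.029, edgeR adjusted p = 6.57e-05). *Ankrd17* had 269, 267 and 259 CPM in the Ctrl Inputs, and 314, 311 and 301 CPM in those of IR, the smallest estimate of the 5 at 0.14 (standard error 0.033, edgeR adjusted p = 8.18e-04).

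All 5 thus passed the threshold as higher, beside 21.0% of the 16914 genes tested, with 23.9% called lower. The fit scaled the 6 Inputs by themselves. On the scale of all 12 libraries, which the printed CPM use, the log2 differences were 0.21 for *Ankrd11*, 0.42 for *Ankrd12*, 0.19 for *Ankrd17*, 0.27 for *Ankhd1* and 0.24 for *Bod1l*, and all 5 passed there too. In all 5, every IR Input was above every Ctrl Input, which was so for 32.6% of the genes tested. These rises were 1.10-fold to 1.30-fold and lay at the 64.5th to 83.2nd percentile of all genes, so they were common in size among the transcripts of these cells. The Ctrl Inputs also enter the IP/Input ratio by which the genes were chosen, so the direction is not independent of the choice.

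**Figure D1:**
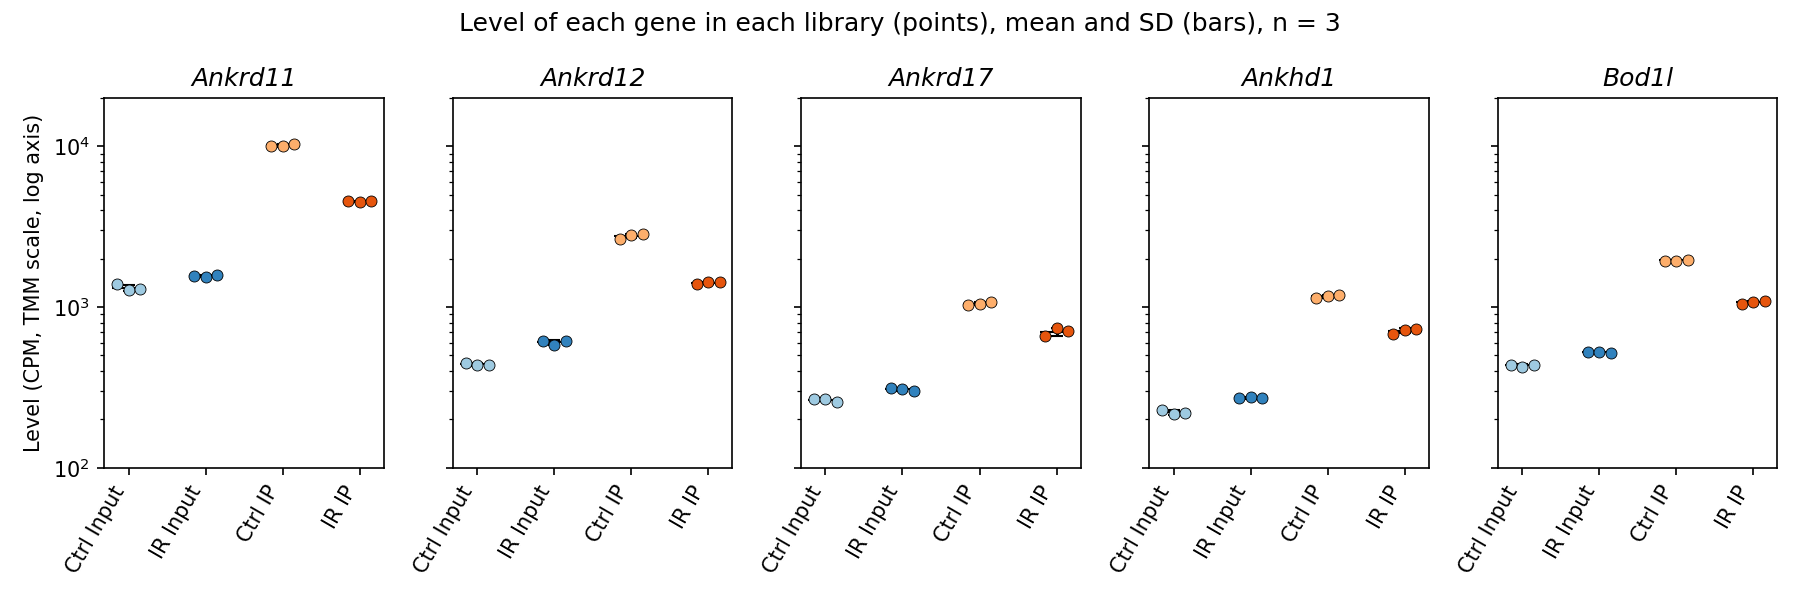
Level (CPM on the TMM scale, log axis) of each gene in each of the 12 libraries (points), with the mean and SD of the 3 libraries of a group (bars). In every gene the Ctrl IP stands highest, the IR IP lies between it and the Inputs, and the IR Inputs sit slightly above the Ctrl Inputs, for *Ankrd11* at 10156, 4538, 1561 and 1324 CPM.

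Per kb of the principal transcript, *Ankrd11* was the most abundant of the 5 in the Ctrl Inputs, with 157 ± 6.57 CPM per kb (SD, n = 3). *Bod1l* (41.2 ± 0.73) and *Ankrd12* (40.7 ± 0.81) followed and differed by less than their SDs. *Ankhd1* (26.9 ± 0.90) and *Ankrd17* (25.3 ± 0.55) were lowest, and the gap between them was larger than either SD. After IR the order separated further, with *Ankrd12* at 55.8 ± 2.07, *Bod1l* at 49.5 ± 0.57, *Ankhd1* at 33.2 ± 0.42 and *Ankrd17* at 29.5 ± 0.65 CPM per kb, all under *Ankrd11* at 185 ± 2.26. The length used matters for *Ankrd17*, whose merged exons over all its annotated transcripts span 35542 bases and whose Ctrl Input level was 7.46 CPM per kb on that scale.

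In the YTHDF2 IP of unirradiated tumors, *Ankrd11* took 0.958% ± 0.010 of all counts on genes (SD, n = 3) and was at rank 2 in all 3 libraries, behind the long noncoding RNA *Malat1*. Its share of the Ctrl Inputs was 0.135% ± 0.0054, at rank 56 to 62. The 5 genes together accounted for 1.61% ± 0.0087 of the counts in the Ctrl IPs, against 0.273% ± 0.0074 in the Ctrl Inputs. After IR the joint share fell to 0.924% ± 0.0075 in the IPs and rose to 0.311% ± 0.0027 in the Inputs. A share of counts grows with transcript length, so these ranks are statements about the libraries and not about molecules.

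The binding intensity of each pool was taken as log2(IP/Input), the IP against the Input of the same lysate. No control IP was among the libraries, so background recovery in this ratio cannot be told apart from binding. *Ankrd11* had values of 2.86, 2.97 and 2.99 in the Ctrl pools and 1.55, 1.54 and 1.53 in the IR pools. The IR pools were nearly identical and far below the Ctrl pools, and the mean ratio went from 7.68-fold to 2.91-fold. *Ankrd12* had values of 2.56, 2.68 and 2.71 in Ctrl and 1.18, 1.31 and 1.21 in IR, from 6.28-fold to 2.35-fold.

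The second pair of paralogs started lower and lost less. *Ankhd1*, whose values were 2.31, 2.44 and 2.45 in Ctrl, had 1.34, 1.39 and 1.43 in IR, or 5.28-fold and 2.62-fold on average. *Ankrd17* had the lowest values in Ctrl, with 1.93, 1.98 and 2.06, and the smallest difference, with 1.07, 1.24 and 1.24 in IR (3.97-fold to 2.28-fold). *Bod1l* had values of 2.15, 2.20 and 2.16 in Ctrl and 0.99, 1.03 and 1.08 in IR, from 4.50-fold to 2.05-fold. It ended as the least enriched of the 5 after IR although it was more enriched than *Ankrd17* in Ctrl. No IR pool reached the lowest Ctrl pool in any of the 5 genes, which was so for 21.6% of the 20720 genes tested.

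**Figure D2:**
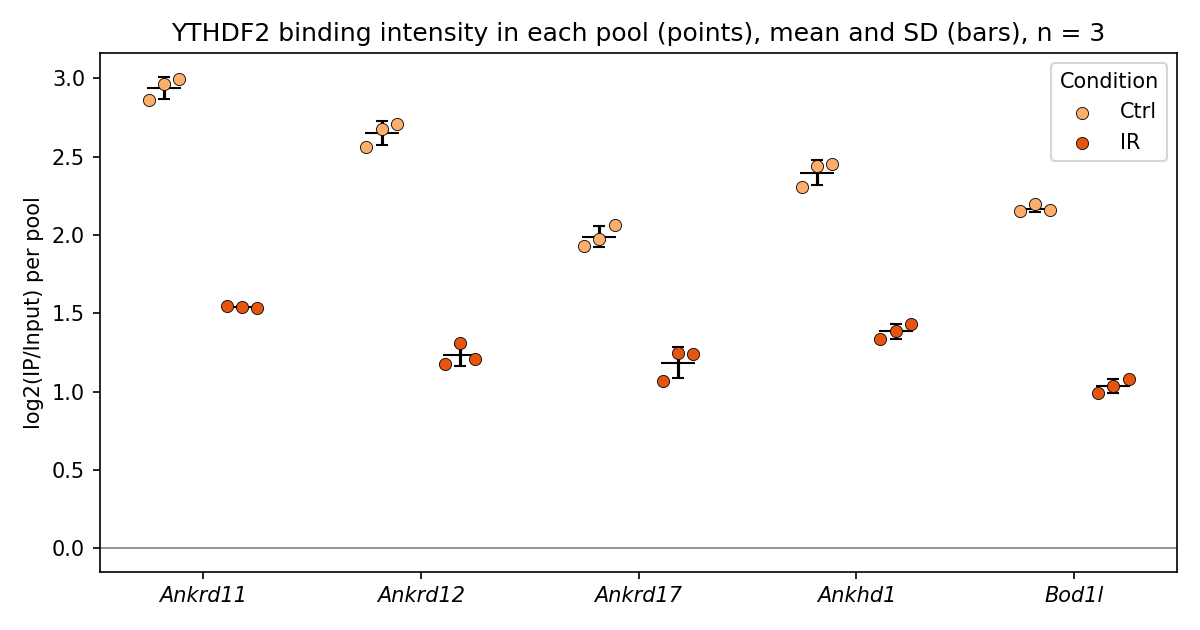
YTHDF2 binding intensity, log2(IP/Input), of the 5 genes in each pool (points), with mean and SD over 3 pools (bars), in Ctrl and IR. The Ctrl pools range from 1.93 in *Ankrd17* to 2.99 in *Ankrd11*, the IR pools from 0.99 in *Bod1l* to 1.55 in *Ankrd11*, and all remain above 0.

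Fitted over all genes with edgeR, IP over Input in Ctrl was 3.02 for *Ankrd11* (standard error 0.034), 2.73 for *Ankrd12* (0.036), 2.47 for *Ankhd1* (0.040), 2.24 for *Bod1l* (0.033) and 2.07 for *Ankrd17* (0.038), all on the log2 scale. These values sat between the 91.9th and 96.8th percentile of 17416 genes, of which 34.1% were called higher in the IP and 34.6% lower. *Ankrd11* was 549th from the top by this ratio while it was 2nd by count share. In IR the same fit gave 1.60, 1.29, 1.44, 1.09 and 1.24 in that order, with standard errors of 0.027 to 0.047. The 5 then stood between the 74.2nd and 81.8th percentile of 18650 genes, where 32.1% were called higher and 30.4% lower. The enrichment in IR remained positive for all 5 at lower percentiles. The spread among the genes narrowed too, since the range from the highest to the lowest log2 value was 3.02 to 2.07 in Ctrl and 1.60 to 1.09 in IR.

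The change of log2(IP/Input) from Ctrl to IR was −1.42 for *Ankrd12* (standard error 0.048), −1.40 for *Ankrd11* (0.039), −1.13 for *Bod1l* (0.043), −1.01 for *Ankhd1* (0.054) and −0.80 for *Ankrd17* (0.058). *Ankrd12* and *Ankrd11* differed by less than their standard errors. Across the 20720 genes tested the median change was −0.083, with 20.2% of the genes called, 13.9% as lower and 6.28% as higher. With library size alone as the scaling this split turned to 877 genes lower and 2862 higher, and the median of all genes to 0.23. The 5 genes kept their sign there, with a median of −0.82 against −1.13.

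Most of the loss came from the IP libraries. The IP of *Ankrd11* went from 10064, 10006 and 10399 CPM in Ctrl to 4583, 4476 and 4554 CPM in IR, a log2 difference of −1.15 (standard error 0.024). That placed it at the 2.16th percentile of 19255 genes, of which 9.85% were called lower and 6.12% higher in the IP after IR. The IP of *Ankrd12* went from 2662, 2807 and 2836 CPM to 1397, 1430 and 1423 CPM, a difference of −0.95 (standard error 0.034).

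*Bod1l* stood at 1944, 1949 and 1960 CPM in the Ctrl IPs and at 1047, 1072 and 1091 CPM in those of IR, a difference of −0.85 (standard error 0.034). The *Ankhd1* libraries had 1137, 1172 and 1195 CPM in the Ctrl IPs and 684, 725 and 735 CPM in those of IR (−0.70, standard error 0.042). The smallest difference was again in *Ankrd17*, from 1027, 1052 and 1079 CPM to 661, 737 and 710 CPM (−0.57, standard error 0.046). In each of the 5 genes all IR IPs lay below all Ctrl IPs, as they did for 18.0% of the genes tested. The share of reads assigned to no gene was also higher in the IR IPs, at 49.4% to 54.1% against 41.8% to 42.7% in the Ctrl IPs, and its part in these differences was not tested.

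Split by library type within a single fit of all 12 libraries, the IP side made up 84.7% of the change of *Ankrd11*, 78.4% of *Bod1l*, 75.1% of *Ankrd17*, 72.0% of *Ankhd1* and 69.4% of *Ankrd12*. The remainder was the rise in the Inputs, so *Ankrd12* matched *Ankrd11* in its total through a smaller IP loss and a larger Input gain.

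**Figure D3:**
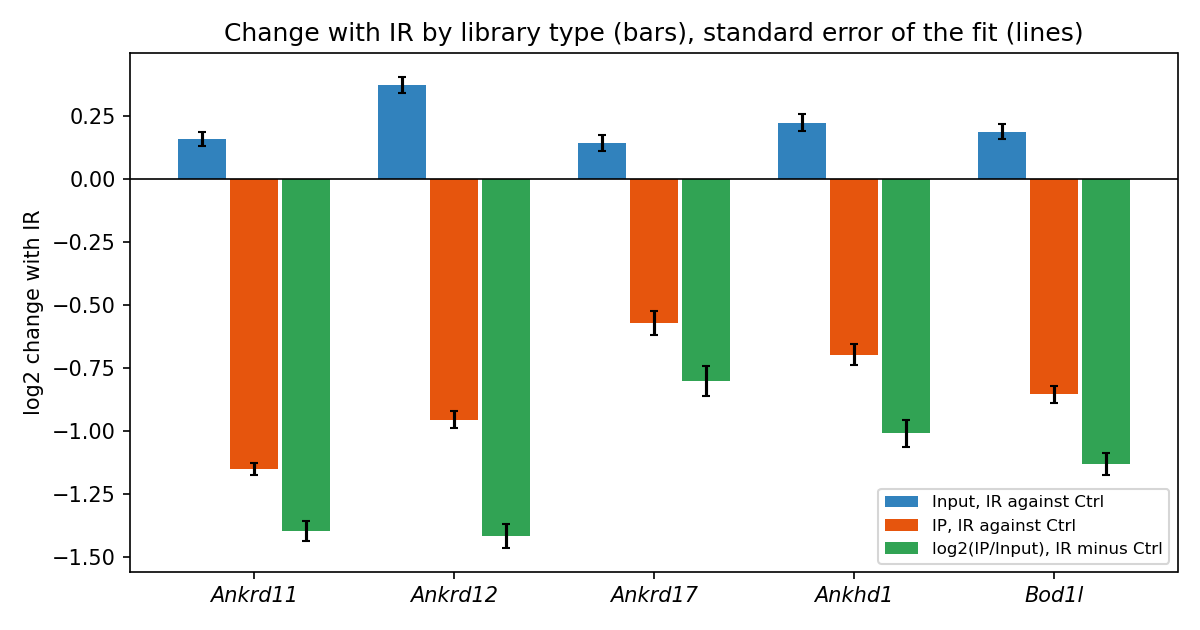
Log2 change with IR of each gene in the Inputs, in the IPs and in log2(IP/Input) (bars), with the standard error of each fit (lines). The Input bars lie above 0, from 0.14 to 0.37, and the IP bars below, from −0.57 in *Ankrd17* to −1.15 in *Ankrd11*.

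Exon length was examined over 10573 protein-coding genes that averaged 100 counts or more over the 12 libraries. The median log2(IP/Input) in Ctrl was −0.43 for the 7551 genes whose longest coding exon was under 500 bases, 0.23 from 500 bases, 0.47 from 1000, 0.72 from 1500 (530 genes), 0.83 from 3000 (72 genes) and 1.02 from 4500 (41 genes). The classes were drawn after the exon lengths of the 5 genes were known, and exon length goes together with transcript length and coding length, so this is a description across genes without a test. *Ankrd11*, *Ankrd12* and *Bod1l* ranked 2nd, 4th and 7th among the 41 genes in the longest class. *Ankhd1* ranked 17th and *Ankrd17* 43rd of the 530 genes in theirs. The genes were chosen for strong enrichment, so these ranks restate the choice within classes of like exon length.

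In the longest class the median change of log2(IP/Input) was 0.40, with a quartile range of −0.18 to 0.80, whereas in the shortest class it was −0.18. *Ankrd12* and *Ankrd11* had the largest falls of the 41 genes, followed by *BC005561* (−1.34) and *Bod1l*, where the fall of *Ankrd11* and *Ankrd12* was part of their selection. In the Inputs, the median of the 41 genes was −0.42, and *Ankrd12*, *Bod1l* and *Ankrd11* had the 2nd, 6th and 8th largest rises. The class from 1500 bases, to which *Ankhd1* and *Ankrd17* belong, had a median change of −0.040, with a quartile range of −0.34 to 0.36. In that class *Ankhd1* ranked 8th and *Ankrd17* 26th of 530 by size of fall. *BC005561*, a gene related to *Thoc2* with which it may share reads, is named here because it stood between members in the ranking of the 41 genes.

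**Figure D4:**
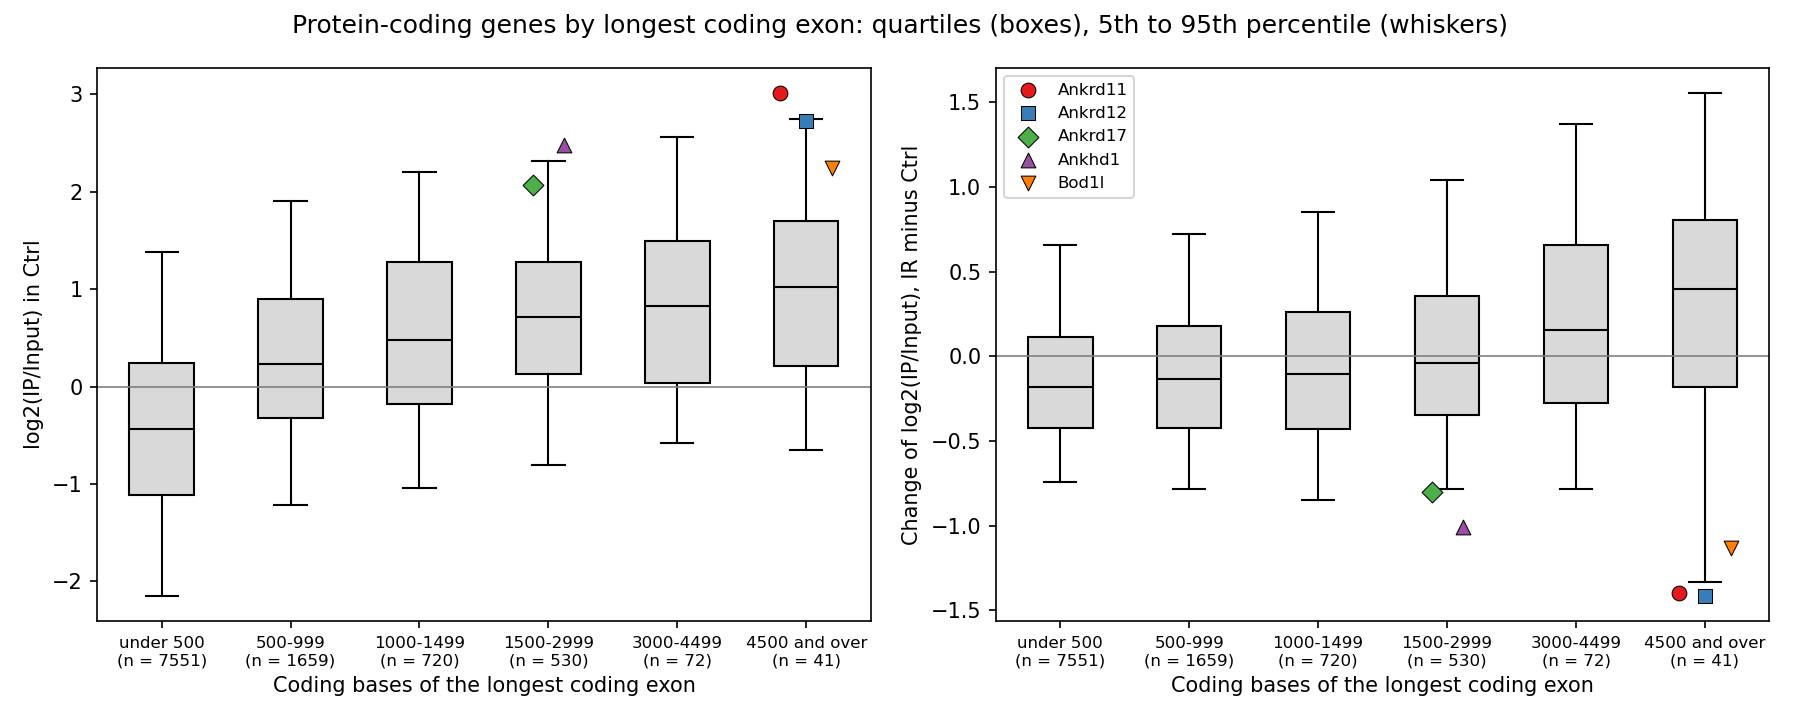
Log2(IP/Input) in Ctrl (left) and its change with IR (right) for 10573 protein-coding genes by the coding bases of the longest coding exon, with boxes for quartiles and whiskers for the 5th and 95th percentiles, and the 5 genes as marked points. The boxes rise with exon length in both panels, to medians of 1.02 and 0.40, while the 5 genes lie high on the left and low on the right.

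The genes with the most similar pattern were sought among 10576 other protein-coding genes by the root mean square difference of centred log2 CPM over the 12 libraries, which share their conditions. The nearest to *Ankrd12* were *Srek1* (0.079), *Pnisr* (0.092) and *Nsrp1* (0.11), which encode proteins of splicing and nuclear speckles. *Srek1* had 2.75 for log2(IP/Input) in Ctrl, 1.34 in IR and a change of −1.39. *Ankhd1* was the 5th nearest gene to *Ankrd12* (0.11), and *Pnisr* was also among its own 3 nearest (0.079), after *Cwf19l2* (0.070) and the transcription factor gene *Pou2f2* (0.076).

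*Ankrd11* had no neighbour as close, with *Ptpn7* (0.14), a hematopoietic tyrosine phosphatase, the chromatin remodeler *Chd7* (0.15) and *Srek1* (0.15) at the top and *Ankrd12* in 9th place (0.18). *Ptpn7* and *Chd7* changed by −0.87 and −0.98, less than *Ankrd11* itself. The nearest to *Bod1l* were *Ccar1* (0.067), *Zcchc17* (0.079) and *Rbbp6* (0.083), and those to *Ankrd17* were *Rabl6* (0.061), *Cbfa2t3* (0.065) and *Zcchc17* (0.067). *Ankrd17* was the 13th nearest gene to *Bod1l* (0.11), closer than to its paralog *Ankhd1* (0.16, 131st nearest to *Ankrd17*).

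The rest of the *Ankrd* family was divided. Of 44 other protein-coding *Ankrd* genes, 30 had enough counts in the Ctrl libraries, and 14 were called higher and 8 lower in the IP there (median 0.37, against 0.018 over all genes tested, of which 34.1% were called higher and 34.6% lower). For the change with IR, 4 were called higher and 5 lower of 33 (median −0.19, against −0.083 and 6.28% higher and 13.9% lower over all genes). Over the alternatives these counts ran from 2 to 6 higher and from 2 to 6 lower. In the Inputs 4 rose and 8 fell of 30 tested (median −0.047, against 0.0072 and 21.0% higher and 23.9% lower over all genes), but with all 12 libraries in 1 fit 3 rose and 2 fell, and the median was 0.0043. The medians of the IP in Ctrl and of the change depend on scaling, since with all uniquely aligned reads as library size the former was −0.14 with 7 higher and 14 lower, and with library size alone the latter was 0.12.

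Genes of this and the next lists were named for the largest called Input changes or the highest log2(IP/Input) in Ctrl. Both enter the change of log2(IP/Input) with IR, so its direction in a named gene is not independent of the naming. Named members of the family went in several directions. *Ankrd9*, a substrate adaptor of ubiquitin ligases, was the most enriched in the Ctrl IPs, with a log2 value of 3.50 (standard error 0.066), and *Ankrd49* followed with 2.20 (0.050). Both were lower in IR, by changes of −0.47 (edgeR adjusted p = 0.00131) and −0.78 (edgeR adjusted p = 6.30e-07). *Ankrd52*, a regulatory subunit of protein phosphatase 6 that acts on Argonaute proteins, went in the opposite direction to *Ankrd11*. It stood at 76.8 ± 2.45 CPM in the Ctrl Inputs, with 32.0 ± 0.24 in those of IR (log2 difference −1.34, standard error 0.049, edgeR adjusted p = 7.65e-18), while its IP went from 52.2 ± 5.63 to 74.2 ± 0.68 CPM. Its log2(IP/Input) was −0.48 in Ctrl and 1.27 in IR. *Ankrd13d* (0.61, edgeR adjusted p = 1.22e-06) and *Ankrd37* (0.49, edgeR adjusted p = 0.0176) had the largest rises in the Inputs, and *Ankrd33b* fell by 0.32 on the log2 scale (edgeR adjusted p = 9.72e-05).

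The next list, the background of Ankrd11 and Ankrd12, held 19 genes of nuclear receptors, coactivators, corepressors, acetyltransferase complexes and histone deacetylases. Whether each product binds those proteins was not examined. Of the 19, 10 were called higher and 4 lower in the Ctrl IPs (median 0.54, beside 34.1% and 34.6% of all genes). With all uniquely aligned reads as library size, 7 were higher and 9 lower and the median was 0.026. With IR 8 lost and 4 gained log2(IP/Input), beside 13.9% and 6.28% of all genes (median −0.26, turning to 0.057 with library size alone, where 3 were lower and 5 higher). The acetyltransferase gene *Crebbp* (2.31, standard error 0.035) and the corepressor gene *Ncor1* (2.26, standard error 0.038) had the highest log2(IP/Input) in Ctrl and changed by −0.48 and −0.90 with IR (edgeR adjusted p = 1.96e-06 and 7.07e-11). In the Inputs of the 19 genes, 7 rose and 6 fell (median 0.011), beside 21.0% and 23.9% of all genes. The deacetylase gene *Hdac4* rose by 0.38 (edgeR adjusted p = 1.87e-08) and *Rxra*, a nuclear receptor gene, by 0.25 (edgeR adjusted p = 5.54e-06), and the acetyltransferase gene *Kat2a* fell by 0.48 (edgeR adjusted p = 2.58e-06).

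Cohesin and its loaders were included because cohesinopathies resemble KBG syndrome. Of 13 genes, 8 fell and 2 rose in the Inputs (median −0.23, beside 23.9% and 21.0% of all genes), and 5 fell and 1 rose with all 12 libraries in 1 fit. In the Ctrl IPs 8 were lower and 4 higher (median −0.66, beside 34.6% and 34.1% of all genes). The loader gene *Nipbl* was an exception in both, with an Input rise of 0.21 (edgeR adjusted p = 3.66e-06) and a log2(IP/Input) of 1.89 in Ctrl that changed by −0.74 with IR (edgeR adjusted p = 1.01e-09). *Smc3*, a core ring subunit, had 1.10 in Ctrl and changed by −1.0 (edgeR adjusted p = 7.09e-10). The acetyltransferase gene *Esco2* rose in the Inputs (0.26, edgeR adjusted p = 0.00916), and the regulators *Pds5a* and *Pds5b* fell by 0.44 and 0.51 on the log2 scale (edgeR adjusted p = 1.70e-09 and 3.77e-07). Over the list, 2 genes gained and 2 lost log2(IP/Input) with IR, beside 6.28% and 13.9% of all genes (median −0.074, turning to 0.24 with library size alone).

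Of 20 Hippo pathway genes, the background of Ankrd17 and Ankhd1, 15 could be tested in the Inputs, where 8 fell and 1 rose (median −0.16, beside 23.9% and 21.0% of all genes). With all 12 libraries in 1 fit 4 fell and 1 rose. The kinase genes *Taok1* and *Lats1* fell by 0.58 and 0.57 on the log2 scale (edgeR adjusted p = 9.77e-11 and 6.45e-08), and *Taok3* rose by 0.13 (edgeR adjusted p = 0.0020). Of 16 tested in the Ctrl IPs, 5 were higher and 8 lower (median −0.12, beside 34.1% and 34.6% of all genes), with *Amotl1* at 1.35 and *Taok3* at 0.81. With IR, 3 of 18 gained log2(IP/Input) and 1 lost it (median 0.28), beside 6.28% and 13.9% of all genes. The gains numbered 9 with library size alone (median 0.59) and 8 with DESeq2. The log2(IP/Input) of the kinase genes changed in opposite directions, *Taok1* by 1.10 (edgeR adjusted p = 7.55e-08) and *Taok3* by −0.52 (edgeR adjusted p = 5.72e-06).

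Of 18 genes of the Set1 complex and of fork protection, the background of Bod1l, 12 fell and 0 rose in the Inputs by edgeR and also by DESeq2 (median −0.26, 0 higher at an unadjusted p under 0.05 in edgeR), beside 23.9% and 21.0% of all genes. With all 12 libraries in 1 edgeR fit only 4 fell. In the Ctrl IPs 12 were lower and 4 higher (median −0.66, beside 34.6% and 34.1% of all genes). *Hcfc1*, a subunit of Set1 complexes, fell by 0.85 on the log2 scale (edgeR adjusted p = 7.05e-15), and the checkpoint kinase gene *Chek1* by 0.74 (edgeR adjusted p = 3.24e-05). *Rif1*, which controls replication timing and fork protection, and *Bod1*, the smaller relative of *Bod1l*, had the highest log2(IP/Input) in Ctrl, at 2.08 and 1.23, and changed by −0.69 (edgeR adjusted p = 1.91e-07) and −0.60 (edgeR adjusted p = 0.0462) with IR. The call of *Bod1* was lost with the replicate block (edgeR adjusted p = 0.0563) and with DESeq2 (adjusted p = 0.0641). Over this list 3 genes gained and 3 lost log2(IP/Input), beside 6.28% and 13.9% of all genes (median 0.088). With library size alone 6 gained and 1 lost (median 0.40).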

How the data were processed

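Counts are the HTSeq read counts per gene that the authors deposited for 12 libraries, made without normalization after trimming with Trimmomatic 0.39, alignment with HISAT to mm10 and counting on GENCODE M19. How strand was set in the counting, and whether duplicates were removed, is not given in the sources used here. The sample records name polyA RNA and an Abcam antibody, and the methods of the study a total RNA kit and an Aviva antibody. Samples were grouped by titles and treatment labels. Symbols, exons and sequences came from GENCODE M21 on mm10, which held 97.8% of the 54446 identifiers in the same version and 99.9% in any version.

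Counts were scaled by TMM and compared by edgeR (4.0.16, R 4.3.3) with its quasi-likelihood F test. A gene entered a comparison with 10 or more counts in 3 or more of its libraries, and p-values were adjusted over all genes tested (Benjamini-Hochberg, 0.05). A standard error is the size of the log2 difference over the root of F. The log2(IP/Input) of a pool used a prior count of 2. DESeq2 1.42.0 was an alternative. TMM cannot show a change shared by most genes. Interval and depth statements cover counting error only, since copies of a molecule cannot be told apart.

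Genes and lists were chosen with earlier results of these data known. Named genes were the 5 members, the 3 genes nearest in pattern to each, and from each list those with a mean of at least 100 counts that had the 2 largest called changes in each direction in the Inputs or the 2 highest log2(IP/Input) in Ctrl, with *Ythdf2*. *Malat1*, *BC005561* and *Krt19* were named after their values were seen, and 1 gene that the rule names is counted in its list but not reported here.

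Same-numbered IP and Input libraries came from 1 lysate, so they are paired by design. The main fits compared groups without this pairing, and the replicate block was the alternative that used it. Their deviations from the group means correlated between −0.023 and 0.040. Across conditions a shared number joins pools of different mice, so for the IR against Ctrl differences in the Inputs or in the IPs the block had no true pairs. All pairs of replicate libraries differed by more than sampling noise. The steps were tested on simulated counts with known changes. Those counts had a common mean profile, a common spread and few changed genes, unlike these libraries. They therefore check that the steps run as meant and not the scaling or error rates here.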

Additional observations from a re-analysis of the deposited data

Results flagged for a closer look

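The change of log2(IP/Input) with IR was itself tested, as an interaction in edgeR over all 12 libraries, for the genes of the lists named beside the 5 transcripts, and it passed the threshold in 16 of 24 (20.2% of all genes tested). These genes were named for their Input change or their log2(IP/Input) in Ctrl, which are terms of the same change, so neither this count nor the directions are independent of the naming. It was positive for *Ankrd52* (1.77), *Taok1* (1.10), *Hcfc1* (0.76), *Ankrd33b* (0.52) and *Pds5a* (0.34). Negative values were found for *Smc3* (−1.0), *Ncor1* (−0.90), *Ankrd49* (−0.78), *Nipbl* (−0.74), *Rif1* (−0.69), *Rxra* (−0.68), *Bod1* (−0.60), *Taok3* (−0.52), *Crebbp* (−0.48), *Ankrd9* (−0.47) and *Hdac4* (−0.19). The 5 genes with positive values had been named for their fall in the Inputs. The call of *Hdac4* was lost under every alternative, with a sign change for library size only (0.13). That of *Bod1* was lost under most alternatives while its value stayed negative, from −0.29 to −0.70. The calls of *Ankrd33b* and *Pds5a* were each lost under 2 of 12 alternatives, and that of *Ankrd9* under 1.

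The share of uniquely aligned reads that the counting assigned to no gene averaged 51.4% in the IR IPs, above every Ctrl IP (41.8% to 42.7%). It was also the most variable of the groups, from 49.4% to 54.1%.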

How the results depend on the processing

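The Input rise of each of the 5 genes passed the threshold under all 13 alternatives, with log2 values of 0.14–0.21 for *Ankrd11*, 0.34–0.42 for *Ankrd12*, 0.12–0.19 for *Ankrd17*, 0.19–0.27 for *Ankhd1* and 0.17–0.24 for *Bod1l*. Over all results, 1043 of 1048 values under other settings kept their direction. So did 90 of 90 under a further one chosen after seeing the data (all uniquely aligned reads as library size). These totals include counts of called genes, which have no direction and could not be scored as reversed. With the replicate block the Input values were 0.16 for *Ankrd11* and 0.37 for *Ankrd12*, and the block ended the calls of *Hdac4* (−0.19, edgeR adjusted p = 0.107) and *Bod1* (−0.61, edgeR adjusted p = 0.0563) for the change of log2(IP/Input) and no other call of a named gene.

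The median log2(IP/Input) of the 5 genes in Ctrl, 2.47, was 2.50 with the size factors of DESeq2, with DESeq2 itself and with at least 10 counts in every library, 2.29 with library size only, 2.36 without a filter, 2.57 with protein-coding nuclear genes only, 1.96 with all uniquely aligned reads, and 2.46–2.54 without 1 replicate. In IR, 1.29 became 1.34, 1.34, 1.41, 1.44, 1.15, 1.42 and 0.82 in that order, and 1.32–1.38 without 1 replicate. For the change, −1.13 became −1.07 with DESeq2 or its size factors, −1.02 with the filter on every library, −0.82 with library size only, −1.05 with protein-coding genes and −1.13 to −1.09 without 1 replicate. For the IP difference, −0.85 became −0.80 with that filter, −0.65 with library size only, −0.89 without a filter, −0.83 with protein-coding genes, −0.90 with all aligned reads and −0.85 to −0.82 without 1 replicate.

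Counts of list genes moved by over 1.5 times in these cases. With library size only, 31 genes gained and 9 lost log2(IP/Input) against 16 and 19, and 23 were higher and 8 lower in the IP against 8 and 15. With the filter on every library 27 gained and 15 were higher in the IP. With all libraries in 1 fit, 19 were lower in the Input against 42, 4 of them from the Set1 and fork list against 12, and 18 were higher in the IP. With all aligned reads, 22 were higher in the Ctrl IP against 37, 23 higher and 55 lower in the IR IP against 37 and 36, and 4 higher in the IP. Leaving out 1 replicate gave 23–28 lower in the IR IP and 5–7 higher in the IP, the lowest of both without replicate 3. The cause of these moves was not tested. Leaving out 1 replicate used fewer libraries, and the filter on every library fewer genes. Library size only and all aligned reads tested the same genes as the main setting, and the fit of all libraries used more libraries. With all libraries in 1 fit, the Input calls of *Ankrd37*, *Esco2* and *Chek1* were lost (edgeR adjusted p = 0.196, 0.243 and 0.186). Over all 13 alternatives the Input call of *Ankrd37* was lost under 3 and that of *Esco2* under 2. Reversed changes of log2(IP/Input) were 0.023 for *Ankrd37*, 0.13 for *Hdac4* and 0.019 for *Kat2a* with library size only, and, leaving out 1 replicate, up to 0.13 for *Ankrd37* (from −0.50) and down to −0.033 for *Amotl1* (up to 0.69), both reversed without replicate 1.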
